A study of Mus musculus with 24 samples.

Results

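Aminoacyl-tRNA synthetases are the enzymes that join each amino acid to its transfer RNA, and 38 of the 55335 genes in the deposited count files encode one. They were taken by gene name: the symbols that pair an amino acid letter with the ending ars, with or without a final 1 or 2, together with Farsa, Farsb, Eprs and Tarsl2. Of these, 21 were counted as cytosolic and 17, whose names end in 2, as mitochondrial; Tarsl2 was counted as cytosolic, as were Gars and Kars, single genes that give both a cytosolic and a mitochondrial enzyme. The choice went by name alone, but it was made with earlier results of these data known.

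The RNA came from primary osteoblasts (OBs, the cells that make bone matrix) grown from parietal bones of mouse pups aged 4 to 5 days on a C57BL/6J background. WT cultures were wild type. Het cultures were heterozygous for G610C, a glycine to cysteine substitution in the Col1a2 gene, which encodes the α2 chain of type I collagen. All cultures grew in medium with ascorbic acid 2-phosphate, under which OBs lay down and process collagen, and polyadenylated RNA was sequenced 8, 14 and 21 days after cells were seeded. Each genotype had 4 libraries at each day, 24 in all. Pups of the same genotype were pooled for a culture, so p-values cover the spread between libraries and not between animals, and the cultures also held cells other than OBs. The study made a pair of preparations from different litters, which differed in plating density and in whether cells were first expanded at 5% O2, and the labels do not say which library came from which. Its methods describe fewer wells per genotype and day than there are libraries, so n counts libraries, and whether some share a well is not known.

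Each synthetase recognises one amino acid and its transfer RNAs, except Eprs, which joins glutamate and proline in 1 protein, and except for phenylalanine, whose cytosolic enzyme is built from the Farsa and Farsb subunits. The mitochondrial enzymes are encoded by separate nuclear genes and imported, while glutaminyl-tRNA in mitochondria is made by amidation and needs no synthetase of its own. Several cytosolic synthetases sit in a multisynthetase complex held together by the scaffold proteins Aimp1, Aimp2 and Eef1e1. Transcription of many cytosolic synthetase genes is known to be raised by ATF4, the main transcription factor of the integrated stress response (ISR).

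Libraries held 17140202 to 59734231 counts. The 6 libraries numbered replicate 1 were the shallowest (17140202 to 25825762) and stood apart from replicates 2 to 4 in many genes, so the main result is also given for replicate 1 and for replicates 2 to 4 taken separately. Counts cannot check the G610C substitution, which changes a base and not the level of Col1a2. All 5 OB markers examined (Col1a1, Runx2, Sp7, Ibsp, Bglap) were present in every library. At days 14 and 21, 4 of them were lower in Het (Bglap had a log2 fold change of -1.54). Of all genes tested there, 8.88% were called lower and 7.26% higher. In the same comparison 5 of 7 macrophage and osteoclast markers were higher (Cd68, Adgre1, Csf1r, Lyz2 and Ctss, by 0.92 to 1.16), while Acp5 and Ctsk were not called. Of 2 smooth muscle markers Myh11 was higher (0.89) and Acta2 was not called (0.06). None of 3 chondrocyte markers was called (median -0.94), but Col10a1 was at 0.0443 to 0.0875 RQ in WT and 0.00766 to 0.0106 in Het in replicates 2 to 4 of day 14, against 0.139 and 0.282 in replicate 1. The adipocyte markers Adipoq and Plin1 were too low to be tested. In bulk RNA, fewer cells of a type and less RNA per cell cannot be told apart.

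Levels are given as RQ, a gene's count relative to 4 housekeeping genes (Actb, Actg1, Sdha and Mrfap1), whose geometric mean in that library is the divisor. The study worked on the same scale. Tests were edgeR's quasi-likelihood tests on the counts with the same scale, with Benjamini-Hochberg adjustment over all genes tested, and a gene was called at an adjusted p under 0.05. All 38 synthetase genes passed the filter on low counts in every comparison.

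Cytosolic synthetase transcripts were the more abundant ones. Per kilobase of exon, the median RQ in WT cultures at days 14 and 21 was 0.0404 over the 21 cytosolic genes and 0.00581 over the 17 mitochondrial genes. Gars, for glycine, was the highest with 0.134 ± 0.0108 RQ per kilobase (SD, n = 8), followed by Lars2 with 0.129 ± 0.0887, Nars with 0.0943 ± 0.00532, Hars with 0.0572 ± 0.00639 and Sars with 0.0569 ± 0.00345. Gars and Lars2 did not differ beyond their spread, nor did Hars and Sars. Apart from Lars2 and Tarsl2, the compartments separated completely: the lowest remaining cytosolic gene, Farsa (0.0161), lay just above the highest remaining mitochondrial gene, Hars2 (0.0154), by less than their spread. Tarsl2, a cytosolic threonyl-tRNA synthetase homologue, was at 0.00345, among the mitochondrial levels, and Mars2 was the lowest of all at 0.00108.

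In Het cultures at days 14 and 21, 15 of 21 cytosolic synthetase genes were higher than in WT and none was lower, while 1 of 17 mitochondrial genes, Tars2, was higher and none was lower. Among all 19839 genes tested, 7.26% were called higher and 8.88% lower. The median log2 fold change was 0.21 over the cytosolic genes and -0.01 over the mitochondrial genes, against -0.05 over all genes, a difference between the compartments of 0.22. The cytosolic genes called were Wars, Sars, Lars, Aars, Nars, Gars, Rars, Cars, Yars, Vars, Farsb, Mars, Iars, Tars and Kars, in order of size. The plot of fold changes shows the compartments side by side.

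**Figure D1:**
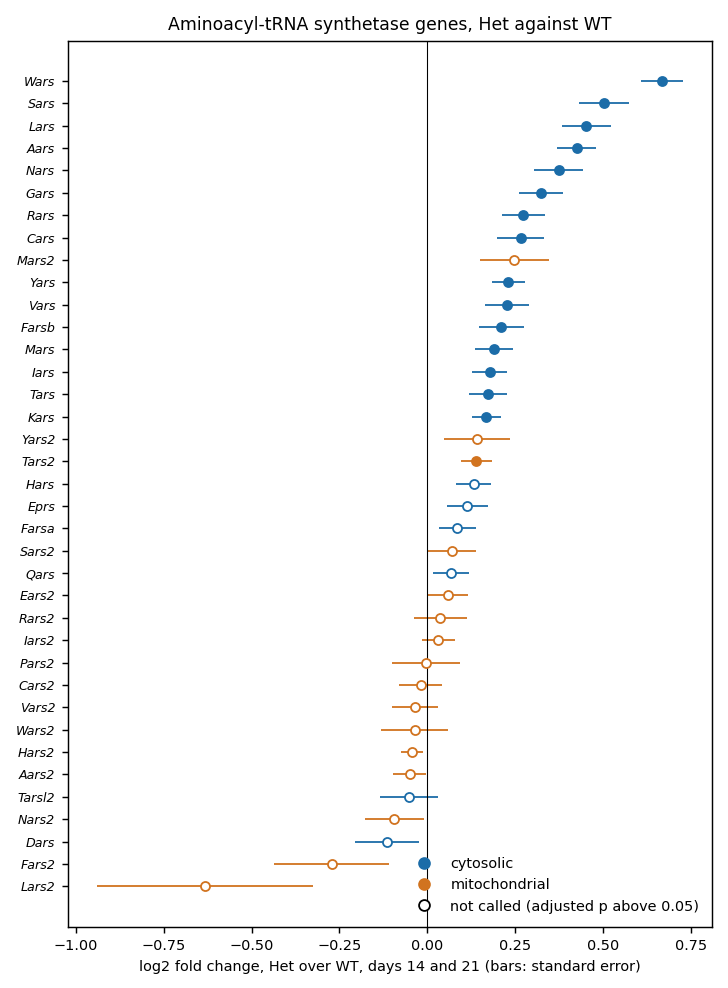
Each point is the log2 fold change of 1 of 37 synthetase genes in Het over WT cultures at days 14 and 21 (x axis), with its standard error as a bar. Filled points passed an adjusted p of 0.05. Blue points are cytosolic and orange points mitochondrial genes. The called genes run from 0.14 for Tars2 to 0.67 for Wars, and Lars2 lies at -0.63 with the widest bar.

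Wars, which charges tryptophan (chromosome 12, 108860030 to 108894174, GRCm38), moved the most. Its RQ was 0.0633 to 0.0799 in the 8 WT libraries (median 0.0664) against 0.0903 to 0.137 in the 8 Het libraries (median 0.107). Every Het library lay above every WT library, with the largest value in Het day 14 replicate 2 and the smallest Het value in day 21 replicate 1. The rise was 0.67 on the log2 scale (SE 0.06, edgeR adjusted p = 8.5e-06), a 1.59-fold change. It was 0.48 within replicate 1 and 0.73 within replicates 2 to 4, as log2 ratios of mean RQ. On single days Wars rose by 0.70 at day 14 and by 0.64 at day 21.

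Groups that did not overlap were also found for Sars, Lars and Aars, 4 genes with Wars, against 0.398% of all genes higher in this way and 0.524% lower. For Sars, the serine enzyme (chromosome 3, 108424865 to 108445209), RQ was 0.268 to 0.324 in WT (median 0.286) against 0.361 to 0.550 in Het (median 0.402). The Het value of 0.550 came from day 14 replicate 2, and the other 3 Het libraries of day 14 lay between 0.400 and 0.413. The log2 fold change was 0.50 (SE 0.07, edgeR adjusted p = 0.000529).

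Lars, the leucine enzyme of the multisynthetase complex (chromosome 18, 42202298 to 42262194), had an RQ of 0.185 to 0.230 in WT (median 0.225) against 0.254 to 0.395 in Het (median 0.282). Replicate 1 was the lowest Het library on both days, at 0.274 and 0.254, and still lay above all WT libraries. Lars rose by 0.45 (SE 0.07, edgeR adjusted p = 0.00107). Aars, the alanine enzyme (chromosome 8, 111033144 to 111057664), went from 0.294 to 0.416 in WT (median 0.359) to 0.427 to 0.579 in Het (median 0.467). Its lowest Het library, day 21 replicate 4 at 0.427, was only just above its highest WT library, day 14 replicate 1 at 0.416. The log2 fold change of Aars was 0.42 (SE 0.06, edgeR adjusted p = 0.000342).

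Nars and Gars, for asparagine and glycine, followed with groups that overlapped through few libraries. Nars ranged over 0.382 to 0.462 RQ in WT and 0.441 to 0.680 in Het. The overlap came from replicate 1 of day 14, where Het had 0.441 and WT 0.462. Gars ranged over 0.363 to 0.465 in WT and 0.458 to 0.696 in Het, and here the overlap was between Het day 21 replicate 2 and WT day 14 replicate 1. Nars rose by 0.37 (SE 0.07, edgeR adjusted p = 0.00357) and Gars by 0.32 (SE 0.06, edgeR adjusted p = 0.00444).

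The next 6 genes by size, Rars, Cars, Yars, Vars, Farsb and Mars, changed by 0.19 to 0.27. Rars, the arginine enzyme, had median RQ values of 0.142 in WT (0.131 to 0.184) and 0.179 in Het (0.146 to 0.209). Cars, for cysteine, had 0.117 (0.0927 to 0.149) and 0.136 (0.127 to 0.178). Yars, for tyrosine, had 0.114 (0.103 to 0.128) and 0.133 (0.122 to 0.168). In all 3 the ranges of the genotypes overlapped while the medians were ordered alike. Vars, for valine, had 0.142 (0.103 to 0.166) in WT and 0.165 (0.126 to 0.181) in Het. Farsb, the β subunit of the phenylalanine enzyme, had 0.0904 (0.0848 to 0.111) and 0.107 (0.0948 to 0.124). Mars, the methionine enzyme, had 0.169 (0.149 to 0.188) and 0.189 (0.176 to 0.218). Mars shares 68 exon bases with the oppositely oriented Ddit3, whose RQ was 0.0361 to 0.0437 in WT and 0.0581 to 0.109 in Het at these days. The strand setting of the counting is not given in the sources used here, and the part of Ddit3 reads in the Mars value was not tested. The smallest called cytosolic changes were those of Iars (0.18), Tars (0.17) and Kars (0.17).

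**Figure D2:**
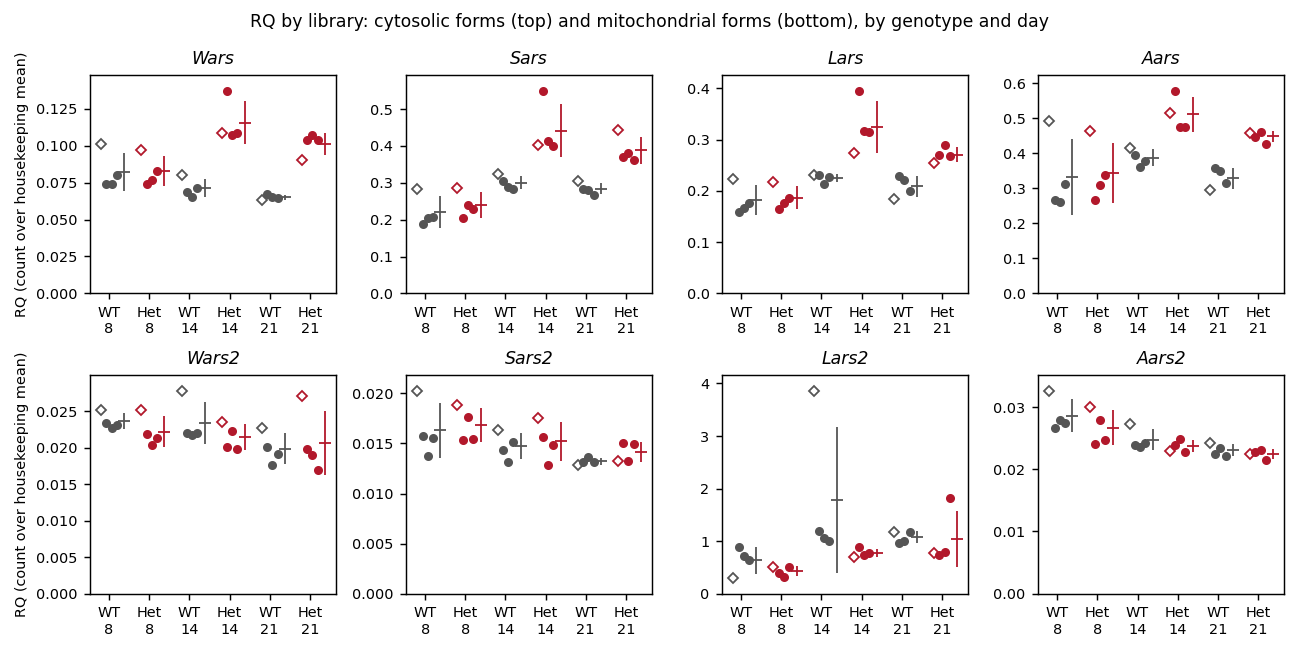
RQ of 4 cytosolic genes (top) and of the mitochondrial gene for the same amino acid (bottom) in every library (y axis), by genotype and day (x axis), with WT in grey and Het in red. Open diamonds mark replicate 1, filled circles replicates 2 to 4, and crosses with bars the mean and SD of 4 libraries. At days 14 and 21 the Het points of Wars, Sars, Lars and Aars lie above all WT points, while at day 8 the genotypes intermingle.

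Of the 6 cytosolic genes not called, Hars (0.13, adjusted p = 0.0823), Eprs (0.11), Farsa (0.09) and Qars (0.07) had positive estimates, and Tarsl2 (-0.05) and Dars (-0.11) negative ones. Dars, Qars and Eprs belong to the multisynthetase complex. In that complex 5 of 8 members were called (median 0.17), and outside it 10 of 13 cytosolic genes (median 0.23). By catalytic class, 8 of 9 cytosolic genes of class I and 7 of 11 of class II were called, leaving out Eprs, which holds an enzyme of each class. Farsa and Farsb, whose products form 1 enzyme, had 0.09 and 0.21, and the difference between them was not tested.

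The calls depended on which libraries entered the fit. With TMM the count was 20, and with DESeq2 size factors or the total count it was 22, and the same 16 genes were called under each. Over all genes, the calls went from 1440 higher and 1762 lower to 2463 and 1485 with TMM and to 3289 and 1008 with the total count. Without any single library, 11 to 18 genes were called higher, and 10 of the 16 were kept in each of the 16 fits. Farsb was kept in 5 of these fits, Tars in 3 and Tars2 in 4, and Mars, Iars and Vars in 11, 14 and 15. Without replicate number 2, 3 or 4, the counts were 7, 4 and 3, and without replicate 1 the count was 20. Wars, Sars and Aars were called without any one of the numbers. The share of all genes called is not given for the fits without a library or a number. A change in those counts is therefore not shown to be particular to the synthetases. Day 14 alone gave 6 genes (Wars, Sars, Lars, Nars, Aars and Gars), beside 1.50% of all genes higher and 1.39% lower, and day 21 alone gave Wars and Aars, beside 0.439% and 0.222%.

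Within replicates 2 to 4, the log2 ratio of mean RQ at days 14 and 21 was above 0 for 20 of 21 cytosolic genes (median 0.21). Within replicate 1 it was above 0 for 18 (median 0.14), but its days differed: the cytosolic median was 0.30 at day 21 and -0.001 at day 14, where 10 of 21 were above 0. Each of these replicate 1 values sets 1 library against another. In pairs of WT and Het libraries with the same day and number, 8 cytosolic genes were higher in Het in 8 of 8 (Sars, Yars, Gars, Aars, Mars, Wars, Vars and Lars), and no mitochondrial gene was. The share of all genes higher in 8 of 8 is not given here, and the labels do not say what a number shares. The summed RQ of the 7 macrophage and osteoclast markers was 2.10 to 4.60 in WT and 3.17 to 7.31 in Het at day 14, and 6.003 to 7.07 and 7.64 to 16.4 at day 21. None of the 7 was at 0 in any library. The summed RQ of the 3 chondrocyte markers was 5.66 to 19.5 in WT and 1.29 to 21.04 in Het at day 14, and 3.18 to 7.46 and 1.08 to 7.45 at day 21. The part of other cell types in the synthetase values was not tested.

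The start regions of the synthetase genes, called or not, were searched on both strands, from 250 bases before to 50 after the RefSeq start (GRCm38.p6). The motif was TGATGNAA, the core of the C/EBP-ATF composite element to which ATF4 binds with a C/EBP partner. Promoters were matched by symbol for 28 members. Cars, Hars, Hars2, Lars, Nars, Pars2, Rars, Vars and Wars were among those with no entry. The motif was found in 5 of 28, namely Aars, Gars, Iars, Tars and Yars, all of them cytosolic genes called higher in Het. They were 5 of the 9 matched cytosolic genes that were called (55.6%), against 0 of 5 cytosolic genes not called and 0 of 14 mitochondrial genes. Over the first promoter of each of 27025 genes, 4.06% held the motif. Its form TGATGCAA, included in the first, was found in Aars, Iars, Tars and Yars, against 0.929% of all genes. A match describes letters in this window and is not evidence of binding.

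Stretches around the motif are shown for Gars and Tars, called genes in which it lay upstream of the start, so that its setting can be read; capitals mark the motif, which here reads on the opposite strand. The Gars bases (chr6:55037911-55038000, plus strand) and the Tars bases (chr15:11399666-11399733, minus strand) lie upstream of the annotated genes, which begin at 55038007 and 11399665.
Gars: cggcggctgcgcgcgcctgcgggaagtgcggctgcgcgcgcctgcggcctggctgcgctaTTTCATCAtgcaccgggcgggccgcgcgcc
Tars: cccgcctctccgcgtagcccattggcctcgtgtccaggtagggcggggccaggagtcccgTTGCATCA
Tars holds the form TGATGCAA, and Gars another form of TGATGNAA. The log2 fold changes in Het at days 14 and 21 were 0.17 for Tars and 0.32 for Gars.

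Among mitochondrial genes the estimates were mixed in sign and 1 was called. Tars2, for mitochondrial threonine (chromosome 3, 95739976 to 95760206), had an RQ of 0.0409 to 0.0533 in WT (median 0.0442) against 0.0459 to 0.0553 in Het (median 0.0495). Its groups overlapped over most of their range, and the rise was 0.14 (SE 0.04, edgeR adjusted p = 0.0423). Its cytosolic partner Tars had 0.205 to 0.295 in WT (median 0.234) against 0.230 to 0.320 in Het (median 0.260), a rise of 0.17 (SE 0.05, edgeR adjusted p = 0.0411). Of the 17 mitochondrial genes, 7 had a positive estimate on this scale, and the median changed sign from -0.01 to 0.04 with TMM, 0.05 with DESeq2 size factors and 0.08 with the total count. With TMM 2 were called (Tars2 and Mars2), and with the other scales 3 (with Iars2).

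Mars2 and Yars2, the mitochondrial methionine and tyrosine enzymes, had the largest positive estimates among the genes not called. Mars2 ranged over 0.00889 to 0.0149 RQ in WT (median 0.0121) against 0.0118 to 0.0180 in Het (median 0.0141), a difference of 0.25 (SE 0.10, edgeR adjusted p = 0.0935). Yars2 ranged over 0.0151 to 0.0224 in WT and 0.0162 to 0.0230 in Het, with 0.14 (SE 0.09, adjusted p = 0.329). Without replicate 1 both were called higher.

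Lars2, the mitochondrial leucine enzyme (chromosome 9, 123366927 to 123462666), was decided by a pair of libraries. Its RQ was 0.968 to 3.86 in WT (median 1.12) against 0.697 to 1.83 in Het (median 0.768). The highest values were WT day 14 replicate 1 (3.86) and Het day 21 replicate 4 (1.83), and the other libraries at these days lay between 0.968 and 1.198 in WT and between 0.697 and 0.891 in Het. With all libraries the difference was -0.63 (SE 0.31, edgeR adjusted p = 0.169). Without both libraries, an alternative chosen after the values were seen, Lars2 fell by 0.49 with an adjusted p of 0.00125. Leaving out Het day 21 replicate 4 alone gave -0.87 (adjusted p = 0.0434), WT day 14 replicate 1 alone -0.26 (adjusted p = 0.325), and replicate 1 at all days -0.17. The same 2 libraries were high in Gm42418, whose locus overlaps ribosomal RNA sequence (31.0 and 22.3, against 0.484 to 3.07 in the other 22 libraries), and in AY036118 (28.0 and 19.99, against 0.416 to 2.68). The mitochondrial ribosomal RNA gene mt-Rnr2 had its highest RQ, 0.671, in WT day 14 replicate 1. In Het day 21 replicate 4 it was at 0.217, against 0.212 to 0.297 in the other Het libraries of day 21. The part of ribosomal RNA reads in the Lars2 value was not tested.

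**Figure D3:**
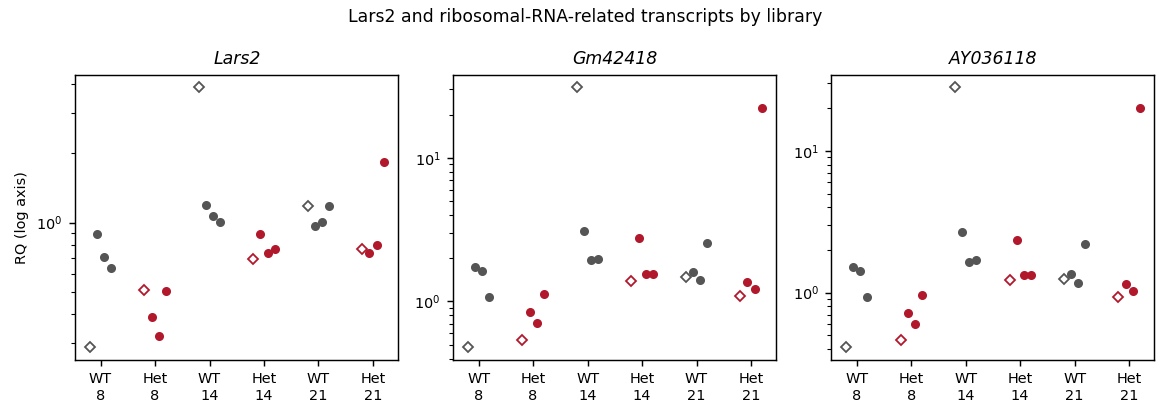
RQ of Lars2, Gm42418 and AY036118 (y axis, log scale) in every library by genotype and day (x axis), with WT in grey and Het in red. Open diamonds mark replicate 1. In all 3 panels WT day 14 replicate 1 and Het day 21 replicate 4 stand above the other late libraries.

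Fars2, the mitochondrial phenylalanine enzyme (chromosome 13, 36117412 to 36726280), ranged over 0.0277 to 0.0532 RQ in WT (median 0.0318) against 0.0207 to 0.0499 in Het (median 0.0253). The highest value of each genotype came from replicate 1 at day 21. The difference was -0.27 (SE 0.16, edgeR adjusted p = 0.275), and without replicate 1 Fars2 fell by 0.38 with an adjusted p of 0.00698. Without Het day 21 replicate 1 alone it fell by 0.42 with an adjusted p of 0.0387. Fars2 shares 501 exon bases, 8.72% of its exons, with the oppositely oriented Nrn1. The RQ of Nrn1 was 0.0708 and 0.0548 in replicate 1 at day 21 in WT and Het, and 0.00244 to 0.00744 in replicates 2 to 4 of Het at days 14 and 21. Since the strand setting is not given, reads of Nrn1 and Fars2 in the shared bases cannot be told apart. In all, 15 members share exon bases with another annotated gene, 14 of them with one on the opposite strand, including Hars and Hars2, which share 195 bases with each other. Aars shares 1326 exon bases (14.3%) with Exosc6 on the same strand, and Iars2 2034 (22.9%) with the oppositely oriented Rab3gap2. Over all libraries Exosc6 held 10216 counts against 197708 for Aars, and Rab3gap2 78816 against 58517 for Iars2. The part of reads from shared bases in these values was not tested.

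The remaining 12 mitochondrial genes had estimates between -0.09 (Nars2) and 0.07 (Sars2), and none was called on the housekeeping scale. Wars2, the partner of Wars, had median RQ values of 0.0219 in WT (0.0177 to 0.0278) and 0.01998 in Het (0.0169 to 0.0270), with -0.04 (SE 0.10, adjusted p = 0.852). Aars2 had -0.05, Sars2 0.07, Rars2 0.04, Vars2 -0.04, Cars2 -0.02 and Hars2 -0.04.

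A ratio of cytosolic to mitochondrial counts within a library does not depend on the library scale. Over 18 pairs of genes for the same amino acid, the log2 ratio was higher in Het at days 14 and 21 in 16, with a median difference of 0.25, and in 9 pairs it was higher in each of the 8 pairs of libraries with the same day and number. At day 8 it was higher in Het in 15 of the 18, with a median difference of 0.11, and whether the late and early ratios differ was not tested. For alanine, Aars over Aars2 was 3.60 to 4.05 in WT and 4.25 to 4.59 in Het. For asparagine, Nars over Nars2 was 4.21 to 4.58 in WT and 4.60 to 5.24 in Het. In these 2 pairs no Het library overlapped with a WT library. The mean differences were 0.48 and 0.47. Wars over Wars2 differed by 0.71 with overlapping ranges (1.48 to 1.88 in WT and 1.74 to 2.77 in Het), and Sars over Sars2 by 0.43. The largest mean difference, 1.01 for Lars over Lars2, includes the pair of libraries with high Lars2. Lower mean ratios in Het were found for Mars over Mars2 (-0.05) and Tarsl2 over Tars2 (-0.20). These ratios were described and not tested.

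**Figure D4:**
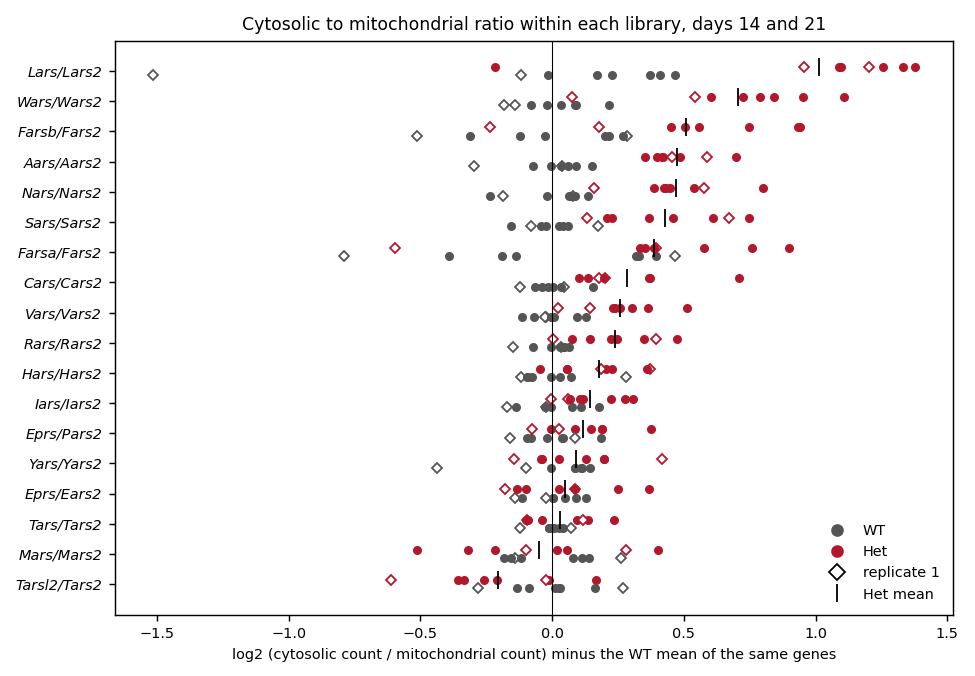
Log2 ratio of cytosolic to mitochondrial counts minus its WT mean (x axis) for 18 pairs of synthetase genes (y axis), per library at days 14 and 21, with WT in grey and Het in red. Open diamonds mark replicate 1 and black bars the Het mean, which lies right of the WT mean at 0 in 16 of the 18 pairs and highest, at 1.01, for Lars over Lars2.

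At day 8, when cultures had been confluent for a short time only, no synthetase gene was called in Het against WT, nor was any other of the 18222 genes tested with edgeR without the replicate block (0% called in either direction). With the replicate block edgeR called 106 genes higher and 179 lower, with 4588 at an unadjusted p under 0.05, and 0 synthetase genes among those called. In that fit without the block 1817 genes were at an unadjusted p under 0.05, 1 of them a synthetase gene, and DESeq2's Wald test called 191 genes higher and 240 lower with 0 synthetase genes among them. The cytosolic median was 0.03 and the mitochondrial one -0.08, against -0.07 over all genes. Groups that did not overlap were found for Ears2 (0.0187 to 0.0202 in WT and 0.0142 to 0.0180 in Het) and Nars2 (0.0122 to 0.0135 and 0.0107 to 0.0115), both lower in Het, beside 3.61% of all genes lower and 1.19% higher. Their estimates were -0.22 and -0.18, with edgeR adjusted p values of 0.478 and 0.534. Without replicate 1, Rars2 fell by 0.21 and Lars2 fell by 0.87, and both passed the threshold. How many of all genes passed in that fit is not given here.

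Replicate 1 at day 8 held more of several cytosolic transcripts in both genotypes. Aars was at 0.491 RQ in WT and 0.464 in Het in replicate 1, and between 0.260 and 0.339 in replicates 2 to 4. Nars was at 0.445 and 0.447, and between 0.246 and 0.305 in the others. For both genes the genotypes lay close to each other within replicate 1.

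Wars was the only synthetase gene whose Het effect differed between days 14 and 21 and day 8, by 0.66 (SE 0.13, edgeR adjusted p = 0.0351), beside 0.166% of all genes called higher and 0.00489% lower. At day 8 its RQ was 0.101, 0.0741, 0.0744 and 0.0803 in WT and 0.0973, 0.0742, 0.0772 and 0.0830 in Het. These values were nearly the same in the genotypes, and the effect at day 8 was 0.01 (SE 0.12). Without replicate 2, 3 or 4 the call was lost (0 genes), and without replicate 1 there were 6, with Farsb, Rars2, Rars, Yars2 and Lars added. For these fits the share of all genes called is not given here. The next largest differences, for Lars (0.41, adjusted p = 0.505), Sars (0.38, adjusted p = 0.688) and Aars (0.38, adjusted p = 0.971), did not pass. The effects of these genes at days 14 and 21 are therefore not shown to differ from those at day 8.

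**Figure D5:**
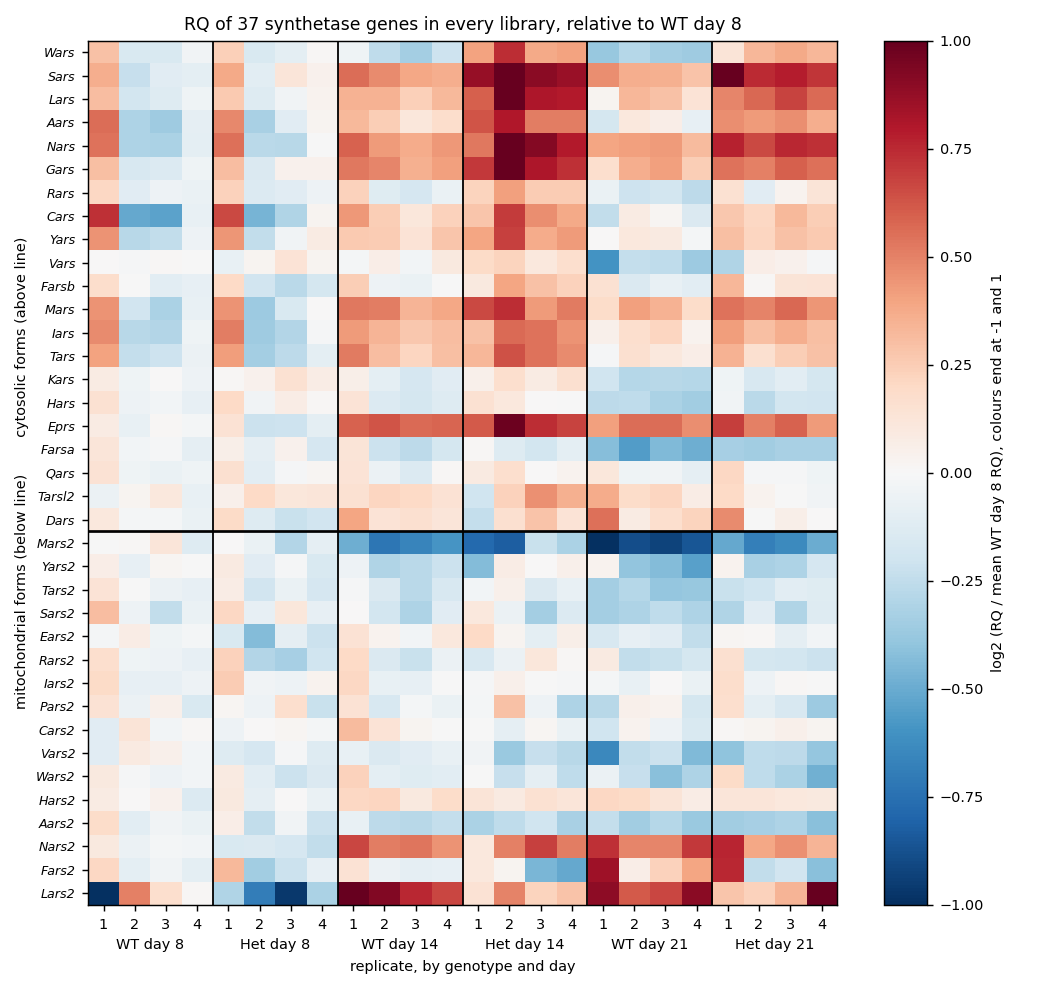
Log2 of RQ over the WT day 8 mean (colour, ending at -1 and 1) for 37 synthetase genes, with cytosolic genes above the line and mitochondrial genes below it, and 1 column per library by genotype, day and replicate. Sars, Nars and Eprs are among the red cytosolic genes at days 14 and 21 (0.60, 0.59 and 0.64 against day 8), and Mars2 is blue there (-0.61).

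With time in culture the cytosolic and mitochondrial genes also moved unequally. The gap between their median log2 fold changes was 0.24 to 0.25 on all 4 scales, while the calls and the signs of many genes depended on the scale. Against day 8, 15 synthetase genes were higher and 8 lower at days 14 and 21 averaged over genotypes, beside 40.9% and 17.4% of all genes. The cytosolic genes held 12 of the rises and 3 of the falls (median 0.22), and the mitochondrial genes 3 and 5 (median -0.02), against a median of 0.16 over all genes. With TMM the counts were 9 higher and 18 lower and with the total count 7 and 23, while the median of all genes moved from 0.16 to -0.02 and -0.14. The calls over all genes moved from 8351 higher and 3560 lower to 5601 and 6692 with TMM and to 4339 and 8805 with the total count. In the same comparison 6 of 7 macrophage and osteoclast markers and all 5 OB markers were higher (medians 3.49 and 1.95), and 2 of 3 chondrocyte markers were lower (median -1.23). Their part in the synthetase values was not tested.

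The 4 largest changes with time kept their direction on every scale. Lars2 was at 0.289 to 0.894 RQ at day 8 and 0.697 to 3.86 later (1.09, SE 0.25, edgeR adjusted p = 0.000641), and it rose by 0.81 without the 2 libraries named above. Eprs, for glutamate and proline, was at 0.396 to 0.507 and then 0.609 to 0.907 (0.64, SE 0.05, edgeR adjusted p = 1.15e-09). Nars2 went from 0.0107 to 0.0135 at day 8 to 0.0136 to 0.0215 later (0.62, SE 0.07). Eprs and Nars2 were the 2 synthetase genes whose groups did not overlap in either direction, beside 13.7% of all genes. Mars2 fell from 0.0171 to 0.0227 at day 8 to 0.00889 to 0.0180 later (-0.61, SE 0.07, edgeR adjusted p = 2.35e-07). Sars rose by 0.60, Nars by 0.59, Gars by 0.50 and Lars by 0.47.

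Taken by genotype, WT cultures had 9 higher and 9 lower genes (31.3% and 13.7% of all genes) and Het cultures 16 and 3 (33.7% and 11.7%). On the housekeeping scale Wars fell with time in WT (-0.27, edgeR adjusted p = 0.0165) and rose in Het (0.39, edgeR adjusted p = 0.00145). The difference between these is the 0.66 tested above. With the total count the Wars estimate averaged over genotypes turned negative, so the direction within each genotype is shown for the housekeeping scale only. For the other genes a change called in one genotype alone is not shown to differ from that in the other.

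From day 14 to day 21, 12 synthetase genes were lower and none was higher, beside 5.94% and 13.3% of all genes. Of the 7 macrophage and osteoclast markers 5 were higher (median 1.04) and none of the 3 chondrocyte markers was called (median -1.22), and their part in the synthetase values was not tested. The lower synthetase genes were 11 cytosolic genes and Tars2. The median was -0.19 over the cytosolic and -0.09 over the mitochondrial genes, against 0.06 over all genes. With TMM, DESeq2 size factors and the total count, 21, 20 and 21 were lower and none was higher, and the 12 were among them each time. Over all genes tested (19839 to 19861), calls lower went from 1178 to 2156, 2120 and 2025 on these scales. Calls higher went from 2646 to 2259, 2293 and 2245.

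Farsa, the α subunit of the phenylalanine enzyme, was the one gene whose days did not overlap, beside 0.696% of all genes lower in this way and 1.77% higher. At day 14 it was at 0.0744 to 0.0973 RQ in WT and 0.0784 to 0.0899 in Het, and at day 21 at 0.0605 to 0.0663 and 0.0699 to 0.0711, a change of -0.29 (SE 0.05, edgeR adjusted p = 0.00140). Vars was at 0.152 to 0.166 in WT and 0.167 to 0.181 in Het at day 14 and at 0.103 to 0.132 and 0.126 to 0.162 at day 21 (-0.30, SE 0.06, edgeR adjusted p = 0.00351). Within each genotype Vars was lower in all 4 libraries of day 21 than in any of day 14. Cars was at 0.119 to 0.149 and 0.133 to 0.178 at day 14 and 0.0927 to 0.116 and 0.127 to 0.138 at day 21 (-0.26, SE 0.07, edgeR adjusted p = 0.0111). The other called genes fell by 0.16 to 0.25 on the log2 scale. Fars2 had the largest estimate in either direction, 0.33 (SE 0.16, edgeR adjusted p = 0.177), and was not called. Without replicate 2 or 4 the count of lower genes was 6 and 5, and by genotype it was 3 in WT, beside 3.22% of all genes lower and 4.89% higher, and 1 in Het, beside 0.771% and 3.80%. For the fits without a number the share of all genes is not given here.

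Genes that act beside the synthetases in Het at days 14 and 21 were described from lists chosen with results of these data known. Among all genes tested in this comparison, 7.26% were called higher and 8.88% lower. In the multisynthetase scaffold 2 of 3 were higher, Aimp1 (0.29, SE 0.08, edgeR adjusted p = 0.0171) and Eef1e1 (0.34). Of 5 genes for cytosolic elongation, which bring charged transfer RNAs to the ribosome and move it along, 4 were higher: Eef1a1 (0.26), Eef1b2 (0.33), Eef1g (0.22) and Eef2 (0.26). Among 3 genes for export of transfer RNA and its CCA end, Xpot, the nuclear exporter of transfer RNA, was higher (0.29). Among 6 genes for editing and recycling, 2 were higher, among them the peptidyl-tRNA hydrolase Ptrh2 (0.21).

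On the mitochondrial side, 0 of 4 genes for amidation and formylation of transfer RNA were called (Gatb -0.12, Gatc 0.11, Qrsl1 0.01, Mtfmt -0.01). Of 4 elongation genes, Tsfm, the nucleotide exchange factor of mitochondrial EF-Tu, rose by 0.67 (SE 0.11, edgeR adjusted p = 0.00141) and Gfm2 by 0.26 (adjusted p = 0.0449). RQ of Tsfm in Het was 0.0334, 0.0619, 0.0493 and 0.0523 at day 14 and 0.0323, 0.0440, 0.0465 and 0.0442 at day 21, with replicate 1 first and lowest on both days. In WT it was 0.0296, 0.0309, 0.0298 and 0.0294 at day 14 and 0.0234, 0.0309, 0.0291 and 0.0261 at day 21, below every Het library. None of the 3 genes for selenocysteine charging was called. No gene of these lists was lower at days 14 and 21. None was called at day 8, where 0% of all genes tested were called in either direction.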

How the data were processed

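RNA was measured in 24 cultures of primary OBs, 4 per genotype at each of days 8, 14 and 21. The files deposited by the authors hold, for 1 library each, unnormalized read counts of every gene, from polyadenylated RNA in TruSeq libraries. Per the submitters' processing notes, cutadapt 2.5, STAR 2.73a, Subread, featureCounts 1.6.4 and the build mm10 were used. The strand setting and the treatment of reads matching several genes are not given in the sources used here. No molecular identifiers were used, so precision is stated for counting only, and totals of 17140202 to 59734231 counts set it.

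RQ and the offsets of edgeR 4.0.16 (glmQLFit, glmQLFTest, filterByExpr, Benjamini-Hochberg at 0.05, R 4.3.3) used the geometric mean count of 4 housekeeping genes, after the study. Het was compared with WT at days 14 and 21 with day as a covariate and at day 8, the difference of these effects was tested over all 24 libraries, and so were days 14 and 21 against day 8. Day 21 was compared with day 14 with genotype as a covariate. The steps were tested on simulated data. Alternatives were TMM, DESeq2 1.42.0 size factors and Wald test, the total count, no filter, single days or genotypes, each replicate number or library left out, replicate 1 or the replicate number as a term, and a bar on RQ adapted from the study's.

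The numbers were checked for pairing by the correlation of deviations from group means. Libraries of WT and Het that shared a day and number had 12 correlations of 0.223 to 0.769 (median 0.386). The 36 pairs of different numbers had a median of -0.074, and the replicate block was used as a paired alternative fit. Different numbers gave -0.611 to -0.249 where replicate 1 was one of them, and 0.101 to 0.442 among replicates 2 to 4. Same numbers among replicates 2 to 4 gave 0.223 to 0.484. Pairing by number is therefore not shown beyond the distance of replicate 1. With deviations from the means of replicates 2 to 4 alone, 9 correlations ran from -0.009 to 0.167. The labels number the replicates without saying what a number shares. No pair of replicates agreed within sampling noise (36 pairs, smallest chi-square per degree of freedom 5.14).

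Members, lists and the rule for named genes were chosen with earlier results of these data known. The rule took up to 12 called genes by size, Tars2 as the called mitochondrial gene with its partner, the 4 largest among genes not called, and the 4 largest in each other comparison. Other genes are given by counts and ranges, and those shown beyond the rule were chosen after their values were seen. They are Wars2, the overlapping genes Ddit3, Nrn1, Exosc6 and Rab3gap2, and, set beside Lars2 without a shared exon, Gm42418, AY036118 and mt-Rnr2. Identifiers were found for 54587 of 55335 genes in GENCODE M21 (GRCm38), and exon lengths of all 38 members were equal to the deposited lengths. Some genes and a sequence are counted but not reported here by name. Promoter sequences are from RefSeq (GRCm38.p6).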

Additional observations from a re-analysis of the deposited data

Results flagged for a closer look

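In 21 of 228 groups of 4 libraries, 1 library lay far from the other 3 in RQ, measured as the gap to its nearest neighbour over the whole range of the group. A rate of about 1 in 20 would apply to independent groups of normally distributed values. The groups here share the same 24 libraries, so that rate need not hold, and a rate for these data was not computed. In 14 of the 21 the distant library was replicate 1. It was the highest at WT day 8 for Iars2 (0.884), Rars2 (0.872) and Qars (0.908), at WT day 14 for Dars (0.870), Wars2 (0.948), Lars2 (0.932), Fars2 (0.872) and Hars (0.863), at WT day 21 for Kars (0.889), and at Het day 21 for Dars (0.874), Rars2 (0.918), Qars (0.882) and Fars2 (0.865). At Het day 14 it was the lowest for Yars2 (0.845).

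Replicate 2 of Het day 14 was the highest of its group for Wars (0.944), Sars (0.916), Iars2 (0.904), Rars (0.865) and Yars (0.849). In RQ, Wars was 0.137 there against 0.107 to 0.109 in the other 3, and Sars 0.550 against 0.400 to 0.413. Without this library 12 of the 16 genes called in Het at days 14 and 21 were kept, Wars, Sars, Rars and Yars among them. At Het day 21 replicate 2 was the lowest for Farsa (0.876), by a gap of small size (0.0699 against 0.0710 to 0.0711), and replicate 4 was the highest for Lars2 (0.947).

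The effect of the genotype on Wars differed between days 14 and 21 and day 8 by 0.66 on the log2 scale, by edgeR's test of the difference itself (adjusted p = 0.0351). In RQ, Wars was higher in Het in 8 of 8 libraries at the later days than in any WT library of those days.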

How the results depend on the processing

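The 16 genes called higher in Het at days 14 and 21 were kept under TMM, DESeq2 size factors and the total count. They were also kept under the Wald test, the replicate block and the replicate 1 term. These fits called 17 to 22 of the members in that direction, and the fit without the filter on low counts called 11. The paired fit with the replicate block called 17 (Hars added) and changed no other call of Het against WT at any day. In the time comparisons it added Wars2 and Yars2 to the genes changed after day 8 and Lars to those lower at day 21. Without one replicate number the count was 3 to 20, on day 14 alone 6, on day 21 alone 2, and by a ratio of mean RQ past 1.2 with an exact permutation p under 0.05, adapted from the study's bar but not its tests, 7. One gene, Fars2, was lower with the replicate 1 term, without replicate 1 and without Het day 21 replicate 1, and 1, Lars2, was lower without Het day 21 replicate 4 or without both libraries with high Lars2. The difference between compartments was 0.22, and 0.188 to 0.244 without one replicate number or one library, 0.177 on day 21 alone, 0.165 without the 2 libraries and 0.26 for means in place of medians. At day 8, 0 to 2 genes were lower without one number. The difference of effects called 0 to 6 genes without one number. The cause of these shifts was not tested. The share of all genes called without one number or library is not given, here or in the time comparisons below.

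Against day 8, the genes called higher at days 14 and 21 were 9 with TMM, 7 with the total count, 9 in WT alone and 9 to 17 without one number, and those called lower 18 with TMM, 18 with DESeq2 size factors, 23 with the total count, 3 in Het alone and 5 to 10 without one number. These scales place the median gene elsewhere. The estimates below turned and were called on one side; others turned without a call on either side. With TMM Farsb was -0.023, Cars2 -0.17, Qars -0.17, Rars -0.14 and Hars2 -0.034. With DESeq2 size factors Cars2 was -0.14, Qars -0.13 and Rars -0.10. With the total count Farsb was -0.15, Dars -0.084, Yars -0.076, Tarsl2 -0.20, Ears2 -0.20, Cars2 -0.29, Aars -0.0041, Qars -0.29, Rars -0.26, Wars -0.24 and Hars2 -0.15. In WT alone Farsb was -0.0012 and Wars -0.27. From day 14 to 21, 20 or 21 genes were lower on the other scales, 5 to 16 without one number, 3 in WT and 1 in Het, and with the replicate 1 term Fars2 was higher (1 gene). Depth did not limit the filter, since the lowest members were counted in every library, but replicate 1 had the fewest counts.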
